A study of Mus musculus with 8 samples.

Results

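The mouse carboxylesterase cluster on chromosome 8 is a row of 9 protein-coding genes, Ces1a, Ces1b, Ces1c, Ces1d, Ces1e, Ces1f, Ces1g, Ces1h and Ces5a, which span 515.7 kb of GRCm38 (chromosome 8, 93020214 to 93535879). H3K27me3 was read at these genes in a table of 265968 regions that compares mouse 3T3 fibroblasts with a control construct and the same cells with an NNMT overexpression construct. A region was taken as a member where it overlapped the RefSeq span of one of the 9 genes extended by 2 kb on both sides, and 120 regions did so, 1 of them shared by 2 genes. The genes were chosen by the deposited library values of this same comparison, in which their regions differed between the sets of libraries, so every difference between the sets below is a description and carries no test. In the authors' deposited table the region just inside the 2 kb limit at the Ces1a end had set 1 values of 14, 5 and 7 and set 2 values of 3, 2 and 0, and the one just outside had 7, 8 and 9 against 2, 3 and 3. At the Ces5a end the region just inside had 384, 542 and 390 against 834, 850 and 750, and the one just outside 191, 266 and 207 against 529, 525 and 383.

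The study holds 3 H3K27me3 libraries of control cells and 3 of NNMT overexpressing cells, and 1 input library of each. All cells were cultured for 48 h at 10 µM methionine with 10% dialyzed serum. Fixation was in 1% formaldehyde, micrococcal nuclease cut the chromatin, and the antibody was C36B11. 3T3 is an established line of mouse embryonic fibroblasts, and NNMT is nicotinamide N-methyltransferase, an enzyme that uses up the methyl donor S-adenosylmethionine. The labels name neither the promoter of the construct nor whether the cells were a pool or 1 clone. The table lists 3 library values for each of the sets in turn without naming them, so the sets are called set 1 and set 2 and neither is tied to a construct. The design text calls the replicates biological, and library depth is unknown. Summed over all regions the libraries held 39899303 to 41971892 in set 1 and 35565866 to 36958436 in set 2, so that scaling the sets to equal sums adds 0.19 to every log2 ratio of set 2 over set 1. Input values are not in the table, and a change in DNA dosage cannot be told apart from a change in the mark. Of the 10 fibroblast markers checked, among them Col1a1, Thy1 and Pdgfra, 0 held a region. Of the 8 hepatocyte markers 8 did, and of the 8 adipocyte markers 5, against 35.3% of all annotated genes.

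Carboxylesterases are serine hydrolases, most of them resident in the endoplasmic reticulum, that cleave ester and amide bonds in drugs, toxins and neutral lipids. In the mouse the family has grown by tandem duplication, its Ces1 genes are best known from liver, and some are also used by adipocytes. H3K27me3 is laid down by Polycomb repressive complex 2 and is found over silent developmental and tissue-restricted genes, often as broad domains, and in mammals it is seeded mostly at CpG-rich promoters.

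The promoters of the cluster are shown first because they hold few CpG sites and because some of them lie inside listed regions and others do not. RefSeq windows of 300 bases (250 before to 50 after the start, build GRCm38.p6) were matched for 7 of the 9 members, with 8 windows in all, since Ces1b has 2. All 7 genes are read from the minus strand. In the sequences below, written 5′ to 3′, capitals mark CpG dinucleotides.

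The window of Ces1a lies at chr8:93048143-93048442, that of Ces1b at chr8:93079891-93080190, that of Ces1c at chr8:93131234-93131533, that of Ces1e at chr8:93229570-93229869 and that of Ces5a at chr8:93535791-93536090.
Ces1a: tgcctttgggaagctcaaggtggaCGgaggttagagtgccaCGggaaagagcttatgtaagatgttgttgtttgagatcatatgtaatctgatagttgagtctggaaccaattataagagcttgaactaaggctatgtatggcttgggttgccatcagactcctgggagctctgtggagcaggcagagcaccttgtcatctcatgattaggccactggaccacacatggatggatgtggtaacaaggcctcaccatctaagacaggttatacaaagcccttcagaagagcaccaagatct
Ces1b: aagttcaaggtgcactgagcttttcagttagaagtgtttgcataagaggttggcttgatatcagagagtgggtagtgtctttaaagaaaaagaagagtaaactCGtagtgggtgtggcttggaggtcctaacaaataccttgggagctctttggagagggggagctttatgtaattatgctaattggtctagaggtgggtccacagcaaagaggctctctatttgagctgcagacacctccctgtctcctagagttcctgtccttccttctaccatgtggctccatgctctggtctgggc
Ces1c: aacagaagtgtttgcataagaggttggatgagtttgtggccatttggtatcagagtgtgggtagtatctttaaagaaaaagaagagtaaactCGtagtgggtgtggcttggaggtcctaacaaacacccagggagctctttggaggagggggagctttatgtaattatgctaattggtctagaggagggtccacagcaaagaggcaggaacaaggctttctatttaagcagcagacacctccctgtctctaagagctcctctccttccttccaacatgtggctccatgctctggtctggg
Ces1e: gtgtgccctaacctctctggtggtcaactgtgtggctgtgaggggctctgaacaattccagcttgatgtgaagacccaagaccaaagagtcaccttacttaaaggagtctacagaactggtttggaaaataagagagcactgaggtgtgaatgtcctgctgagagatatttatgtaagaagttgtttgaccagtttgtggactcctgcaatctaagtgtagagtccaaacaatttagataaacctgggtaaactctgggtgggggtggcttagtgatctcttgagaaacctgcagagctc
Ces5a: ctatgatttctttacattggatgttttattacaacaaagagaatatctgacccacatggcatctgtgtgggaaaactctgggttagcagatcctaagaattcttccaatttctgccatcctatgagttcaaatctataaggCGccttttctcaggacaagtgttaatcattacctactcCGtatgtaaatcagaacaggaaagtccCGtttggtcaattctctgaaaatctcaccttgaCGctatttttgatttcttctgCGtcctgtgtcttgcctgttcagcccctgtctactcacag

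The 8 windows held 0 to 5 CpG dinucleotides, with none in Ces1e and 5 in Ces5a. The median over all 32851 RefSeq promoter windows was 7, and 43.6% of them held 5 or fewer. The GC content of the member windows ran from 40.7% to 47.3%, against a median of 52.7% over all windows. The letters TATAAA, searched on both strands, were found in Ces1g and Ces1h and in 13.6% of all windows. The letters CCAAT were found in Ces1a, Ces1b, Ces1c, Ces1g and Ces5a and in 37.4% of all windows. GTTAAT was found in Ces5a alone among the members and in 7.1% of all windows, and AGGTCA, the core of many nuclear receptor sites, in 0 member windows and 16.3% of all. No motif of the 4 contains the letters of another, and a match is a description and not a binding site.

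**Figure D1:**
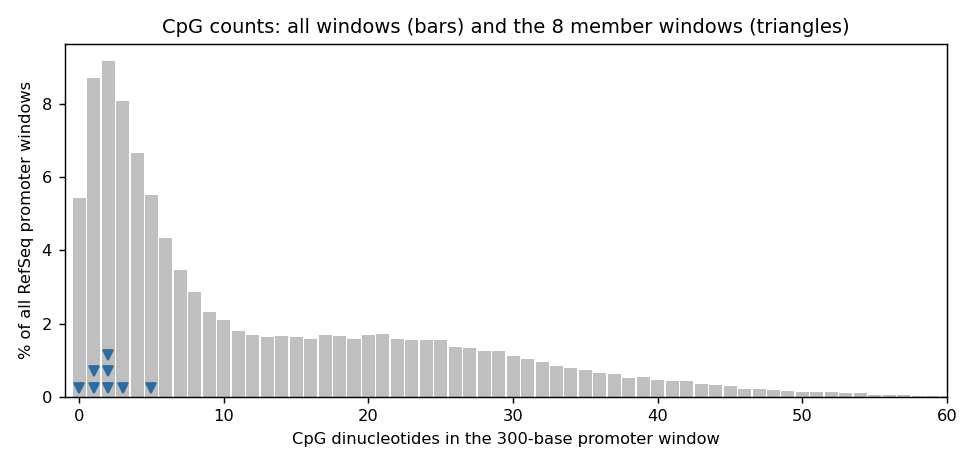
Number of CpG dinucleotides in the 300-base promoter window, as the percentage of all 32851 RefSeq windows (bars, from 0) and for the 8 windows of the Ces1/Ces5a members (triangles, stacked where counts are equal). The member windows lie between 0 and 5, a range that holds 43.6% of all windows.

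The Ces1 genes are close relatives, which bears on how reads were placed. The Ces1b and Ces1c windows share an identical run of 58 bases, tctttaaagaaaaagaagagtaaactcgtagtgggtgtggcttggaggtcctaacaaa, while the longest identical run in any other pair of genes was 14 bases, between Ces1a and Ces1g, among 27 pairs of windows compared. How reads with more than 1 equally good position were handled is not stated in the labels, so values in such stretches may be split between genes. The 58-base run lies in a listed region at Ces1b, but no listed region covers the Ces1c window. Sequence outside the windows, and the promoters of Ces1d and Ces1f, were not compared, so other members may share such stretches too.

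H3K27me3 was higher in set 2 in nearly all listed regions of the cluster outside Ces1a, which was the exception. Stretches of the cluster without a listed region have no values. Summed over the 120 regions, which cover 210.1 kb, set 1 held 26879, 26854 and 24650 in its libraries and set 2 held 50298, 50743 and 48605. The sets did not overlap, and set 2 was 1.91-fold higher (1.81 to 2.06 over the 9 possible pairs of libraries, 1 from each set, as for all ranges given after a ratio). Of the 120 regions 103 were higher in set 2, against 40.5% of all listed regions, and 17 in set 1, against 59.5%. All 3 values of set 2 lay above all 3 of set 1 in 87 regions (24.7% of all listed regions), and the reverse held in 10 (40.5%). A ratio of 2-fold or more towards set 2 was reached by 51 regions, against 12.9% of all, and one of 2-fold or more towards set 1 by 16, all at Ces1a, against 22.3%. The median log2 ratio of set 2 over set 1 was 0.93 in the cluster's regions and -0.42 over all listed regions. These shares come from the comparison that chose the cluster and are given for scale, here and for the counts per member below.

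**Figure D2:**
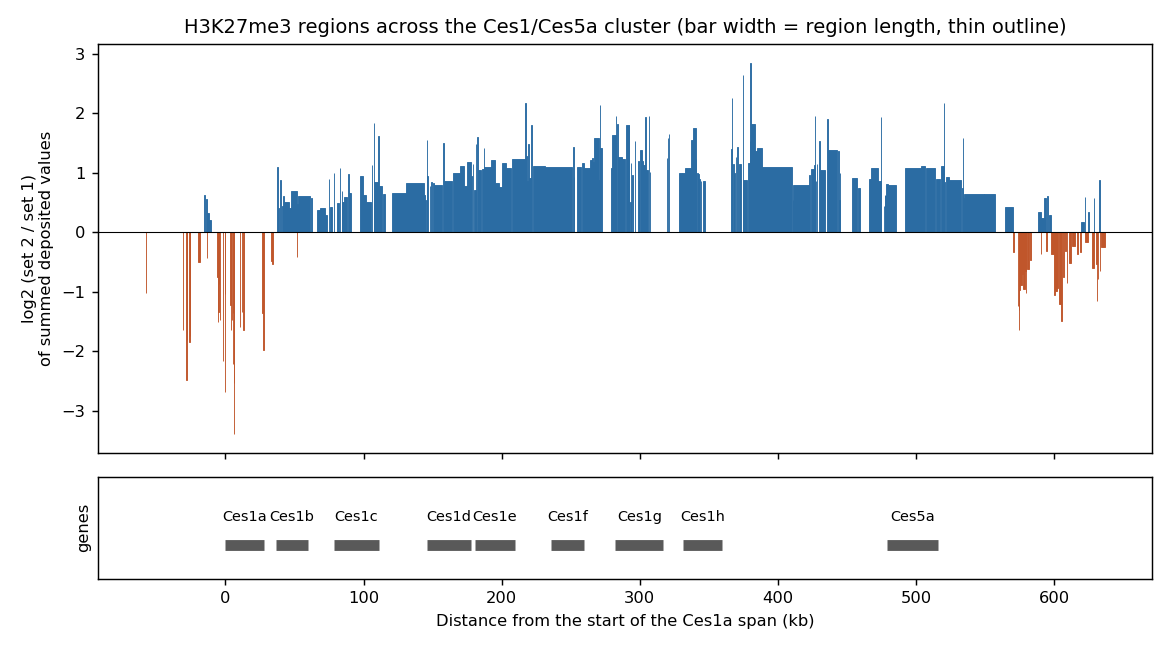
Log2 ratio of set 2 over set 1 of the summed deposited values for each listed region across the cluster (upper panel; blue above 0, orange below 0), with the gene spans (lower panel), against distance from the start of the Ces1a span in kb. Regions at Ces1a fall below 0, and from Ces1b to Ces5a all regions but 1 stand above it.

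Ces1a, the first gene of the row, was higher in set 1. Its 16 regions are short, the longest 650 bp, and cover 8.29% of its window. They summed to 523, 424 and 472 in set 1 and 155, 137 and 205 in set 2. The sets did not overlap, and set 1 was 2.85-fold higher (2.06 to 3.80). All 16 regions were higher in set 1. The region with the largest sum (chromosome 8, 93023651 to 93024300) had 94, 144 and 112 against 33, 67 and 49 in the authors' deposited table, or 2.34-fold. The 3 regions of the cluster with the lowest log2 ratio among those with a sum of at least 100 were all at Ces1a. The lowest of them (93047751 to 93047900), which ends 292 bp from the start site, had 29, 24 and 29 against 5, 9 and 6. The other two overlapped between the sets, with 32, 15 and 38 against 8, 2 and 20, and 69, 57 and 50 against 11, 1 and 56 in the authors' deposited table. The third library of set 2 was the high one in both.

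At Ces1b and Ces1c the direction was the opposite and the ratio modest. Ces1b had 3568, 3589 and 3584 in set 1 and 5313, 5270 and 5475 in set 2 over 11 regions, 1.495-fold (1.47 to 1.53), with the libraries of each set close together. Its region with the largest sum (93072901 to 93081450) is 8550 bp long, covers the promoter window and had 1423, 1512 and 1443 against 2119, 2276 and 2313 in the authors' deposited table, 1.53-fold. Ces1c encodes an esterase secreted into mouse plasma. It had 3528, 3449 and 2980 in set 1 and 4829, 5649 and 5232 in set 2 over 18 regions, 1.58-fold (1.37 to 1.90). All 18 were higher in set 2. Its region with the largest sum (93121751 to 93125400) had 663, 631 and 540 against 711, 995 and 898, 1.42-fold. A short region of Ces1c (93127501 to 93127650) was among the 3 with the highest log2 ratio, at 3.58-fold, but on values of 11, 14 and 0 against 16, 36 and 40 in the authors' deposited table, so that its range over pairs ran from 1.13 to 41.0.

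The ratio was higher at Ces1d, Ces1e and Ces1f. Ces1d encodes triacylglycerol hydrolase, a lipase of liver and fat. Its 16 regions, all higher in set 2, summed to 3962, 3605 and 3758 in set 1 and 6947, 7397 and 6991 in set 2, 1.88-fold (1.75 to 2.05). Its region with the largest sum (93178351 to 93184450) had 802, 801 and 941 against 1602, 1549 and 1476 in the authors' deposited table. Ces1e, or egasyn, holds beta-glucuronidase in the endoplasmic reticulum. Its 14 regions summed to 3985, 4196 and 3598 in set 1 and 8435, 8717 and 7874 in set 2, 2.13-fold (1.88 to 2.42), and all 14 were higher in set 2. The region over its start (93227501 to 93236850, 9350 bp) had 972, 1103 and 935 against 2279, 2485 and 2303, 2.35-fold (2.07 to 2.66). That region takes in the Ces1e window printed above, which has no CpG.

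Ces1f, a relative of the triacylglycerol hydrolase gene, was covered most fully, with regions over 92.0% of its window. Its 6 regions summed to 3577, 3811 and 3521 in set 1 and 7925, 7795 and 7680 in set 2, 2.15-fold (2.02 to 2.25). All 6 were higher in set 2 without overlap between the sets, against 24.7% of all listed regions. It holds the longest region of the cluster (93251751 to 93271450, 19700 bp), also the one with the largest sum, with 2457, 2725 and 2523 against 5584, 5504 and 5350 in the authors' deposited table.

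The highest ratio was at Ces1g, a carboxylesterase of the liver that acts on lipids. Its 20 regions summed to 1642, 1600 and 1220 in set 1 and 3917, 4044 and 3754 in set 2, 2.63-fold (2.29 to 3.31), with the third library of set 1 the lowest. The region at its far end (93300151 to 93302950) had 208, 214 and 178 against 587, 749 and 520 in the authors' deposited table, 3.09-fold (2.42 to 4.19). A region of 850 bp (93323801 to 93324650), with 67, 33 and 45 against 221, 143 and 195, had the highest ratio of the cluster among regions with a sum of at least 100, 3.84-fold (2.12 to 6.53). A further one (93303401 to 93304600) stood at 3.53-fold, with 114, 102 and 36 against 283, 345 and 263 in the authors' deposited table. Its low value of 36 set the upper end of its range, 9.35.

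Ces1h and Ces5a close the row. Ces1h had 1837, 1629 and 1566 in set 1 and 3940, 3568 and 3430 in set 2 over 11 regions, 2.17-fold (1.87 to 2.52). All 11 were higher in set 2 without overlap between the sets, against 24.7% of all listed regions. Its region with the largest sum (93352801 to 93357150) had 522, 459 and 450 against 1114, 888 and 1033. Ces5a, also called cauxin, stands apart from the Ces1 genes by sequence family and by a gap of 119.3 kb after Ces1h. Its 9 regions summed to 4302, 4582 and 3991 in set 1 and 8877, 8269 and 8078 in set 2, 1.96-fold (1.76 to 2.22). Its region with the largest sum (93512051 to 93523850) had 1625, 1521 and 1240 against 3299, 3021 and 2926, 2.11-fold, and the next by sum (93500151 to 93505850) had 1033, 1173 and 966 against 1950, 1812 and 1711, 1.73-fold, in the authors' deposited table.

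Ordered by log2 ratio of set 2 over set 1, the members ran Ces1a (-1.51), Ces1b (0.58), Ces1c (0.66), Ces1d (0.91), Ces5a (0.97), Ces1e (1.09), Ces1f (1.10), Ces1h (1.12) and Ces1g (1.39). Ces1a stood clear of the next, its range ending at -1.04 and that of Ces1b starting at 0.55. Every other pair of neighbours in this order overlapped in its range over library pairs. Ces1b, whose range ended at 0.62, did lie clear of Ces1d, which began at 0.81. The median member stood at 0.97, against -0.37 over the 12236 annotated genes that held a region. By summed values 8 of 9 members were higher in set 2 with no overlap, against 23.7% of those genes. A ratio of 2-fold or more was reached by 4 of 9, against 6.73%. With the sets scaled to equal sums, Ces1d (log2 1.11) and Ces5a (1.16) pass 2-fold as well. The share over all genes is not given on that scale. Ces1a was separated the other way, as were 57.9% of the genes.

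**Figure D3:**
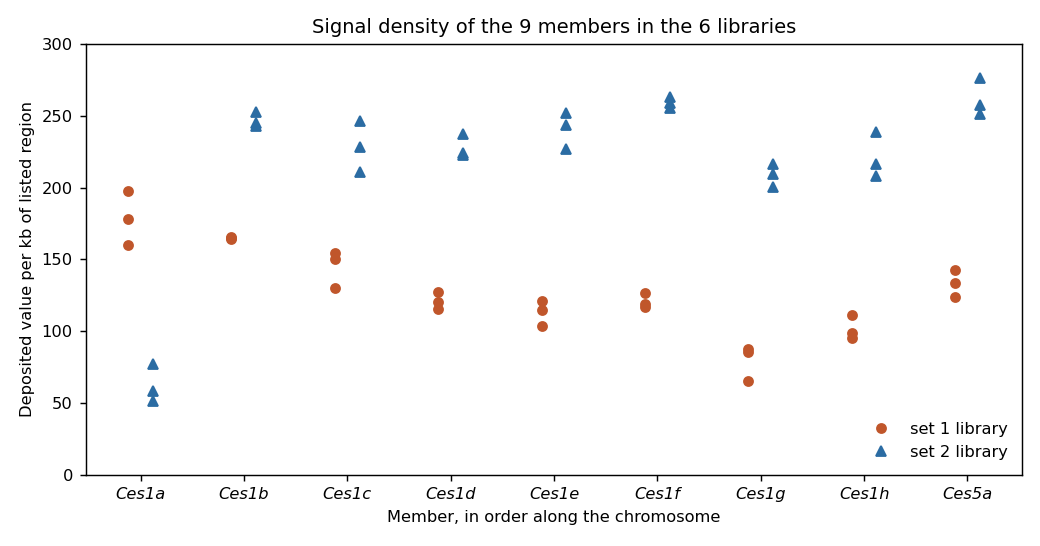
Deposited value per kb of listed region for the 9 members in genome order, where each circle is a library of set 1 and each triangle a library of set 2. From Ces1b to Ces5a the libraries of set 2 lie between 200.7 and 276.1 per kb and those of set 1 between 65.2 and 165.4, and at Ces1a the sets are inverted.

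The levels per kb are given for each set. Per kb of listed region, and averaged over its 3 libraries, set 2 stood between 208.8 at Ces1g and 261.5 at Ces5a in the 8 genes from Ces1b on. Set 1 stood between 79.5 at Ces1g and 165.0 at Ces1b. At Ces1a the libraries of set 1 held 160.0 to 197.4 per kb, and those of set 2 held 51.7 to 77.4, less than at any other member. These densities count listed regions alone, and the higher set held at least 144 per kb in every one of the 120. A floor of that kind narrows the range of the higher set by itself, so the ranges of the sets are not compared.

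The start sites fell on both sides of this pattern. Of the 7 members with a RefSeq window, Ces1b, Ces1e and Ces5a had a listed region over it, and Ces1a, Ces1c, Ces1g and Ces1h did not. The Ces1c window lay in a gap of 0.45 kb between regions, and its start was 83 bp from a short region with 13, 11 and 10 against 39, 45 and 22 in the authors' deposited table. The Ces1g start was 2642 bp from the nearest region, in a gap of 11.9 kb, and the Ces1h start 6574 bp from it, in a gap of 18.7 kb. Those nearest regions overlapped between the sets, with 17, 4 and 20 against 46, 14 and 39 for Ces1g and 82, 39 and 47 against 155, 222 and 69 for Ces1h. The table is a selected list, so a gap can hold an unlisted level that is alike in both sets as well as no mark. The largest share of a window covered was 92.0% at Ces1f, and Ces1g and Ces1h, with no listed region over their start sites, were covered over 47.6% and 47.2%.

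The regions between the members moved with them. Outside the windows, but within the cluster, 66 regions covered 137.95 kb. Of these 64 were higher in set 2, against 40.5% of all listed regions. They summed to 19028, 18291 and 17106 against 35319, 36275 and 34859, with set 2 1.96-fold higher (1.83 to 2.12), close to the 1.91-fold at the genes. The longest, of 21850 bp (93408851 to 93430700), lies between Ces1h and Ces5a and covers Gm30132, a long noncoding RNA gene and the 1 other annotated gene in the span. It had 3149, 2709 and 2798 against 6265, 6174 and 6132 in the authors' deposited table, 2.15-fold.

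The direction turned within a short distance on either side of this stretch. Between the windows of Ces1a and Ces1b it did so within 3000 bp: a run of 23 consecutive regions higher in set 1 ended at 93054500, and 8 regions higher in set 2 began at 93057501, the first with 82, 56 and 57 against 116, 120 and 181 in the authors' deposited table. After 1 short region the other way, whose sets overlapped (93071701 to 93072150), 170 consecutive regions were higher in set 2, from 93072201 to 93590650, over 518.5 kb. That run contained every region of the 7 genes from Ces1c to Ces5a. Of 26027 unbroken runs towards set 2 in the table, 70 had at least as many regions. It ended inside Gm26843, a long noncoding RNA gene chosen here because the edge falls in it, where the last region (93584501 to 93590650) had 1266, 1454 and 1260 against 1789, 1724 and 1815, 1.34-fold. The next region started at the following base with 136, 144 and 115 against 107, 83 and 122, and 12 regions in a row were then higher in set 1. Over its whole span Gm26843 held 111 regions, 96 of them higher in set 1, against 59.5% of all listed regions.

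**Figure D4:**
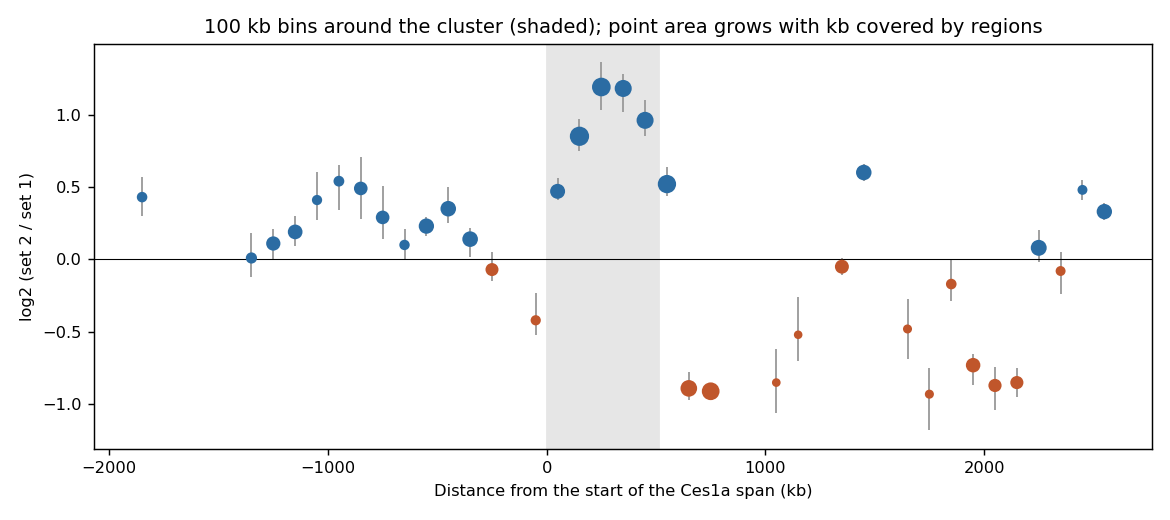
Log2 ratio of set 2 over set 1 in 100 kb bins, placed by their distance from the start of the Ces1a span, with the cluster shaded, bars for the range over the 9 library pairs and point area growing with the kb covered by regions. The bins inside the cluster peak at 1.19, and those that follow it at 600 and 700 kb stand at -0.89 and -0.91.

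The log2 ratios of the flanks were below that of the cluster and opposite in sign on its 2 sides. The 965 regions lying 0.1 to 2 Mb outside the cluster summed to 169762, 168600 and 162166 in set 1 and 156777, 162629 and 156106 in set 2. These overlap, with set 2 at 0.95-fold (0.92 to 1.00), and 47.2% of the regions were higher in set 2. Over all listed regions set 2 stood at 0.87-fold (0.85 to 0.93), and 40.5% of them were higher in set 2. Within each library the cluster's sum was 0.152 to 0.159 of the flank sum in set 1 and 0.311 to 0.321 in set 2, a difference of 1.01 on the log2 scale (0.97 to 1.08), which no scaling of libraries can change. The flank before Ces1a stood at 1.16-fold towards set 2 (1.10 to 1.24), with no overlap and 68.4% of its regions higher in set 2. The flank after Ces5a stood at 1.28-fold towards set 1 (1.23 to 1.32), with 25.5% of its regions higher in set 2. The sign for both flanks together changes with scaling, since on equal set sums their log2 ratio is 0.12 and that of the cluster 1.13. Over all of chromosome 8 set 2 was 1.07-fold higher (1.03 to 1.15), with 9672 of 16348 regions (59.2%) higher in set 2.

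Few of the genes listed as neighbours of the cluster held a region. Of these 20 genes, some of which lie in the flanks, 19 were in the annotation. Regions were held by 4 of them, against 35.3% of all annotated genes. Gm26843, described above, is not in the list. Slc6a2, the noradrenaline transporter gene that lies beside Ces1a, had 484, 402 and 366 in set 1 and 258, 267 and 256 in set 2, a log2 ratio of -0.68 (-0.92 to -0.45), the same direction as Ces1a. Irx6, a homeobox gene, stood at 0.27 (0.07 to 0.45), Nlrc5, a regulator of MHC class I genes, at 0.70 (0.63 to 0.80), above Ces1b and Ces1c and with a range that overlaps that of Ces1c, and Slc12a3, a renal cotransporter, at -0.15 (-0.24 to -0.07), which turns positive when the sets are scaled to equal sums.

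The other carboxylesterases, Ces2a to Ces2h, Ces3a, Ces3b and Ces4a, form a further cluster on chromosome 8, with a lower median log2 ratio than the members. All 10 genes checked held regions, and 9 were higher in set 2 by summed values (31.6% of all genes with regions), 7 of them with no overlap (23.7%). Their median log2 ratio was 0.34 and their highest 0.47, at Ces2e, with 761, 866 and 833 in set 1 against 1063, 1132 and 1214 in set 2. This is below the 0.58 of Ces1b, though the range of Ces2e, 0.30 to 0.67, overlaps that of Ces1b. The ranges of Ces2c (0.05 to 0.73) and Ces2h (0.04 to 0.88) overlap that of Ces1b too, and that of Ces2h overlaps those of Ces1d and Ces5a. The range of Ces1c, 0.45 to 0.92, is overlapped by those of Ces2a, Ces2b, Ces2c, Ces2e, Ces2f, Ces2g and Ces2h. Ces2f and Ces2g overlapped between the sets. Ces4a, the last of the second row, was higher in set 1, with 1474, 1359 and 1378 against 880, 841 and 884, a log2 ratio of -0.69 (-0.81 to -0.62).

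**Figure D5:**
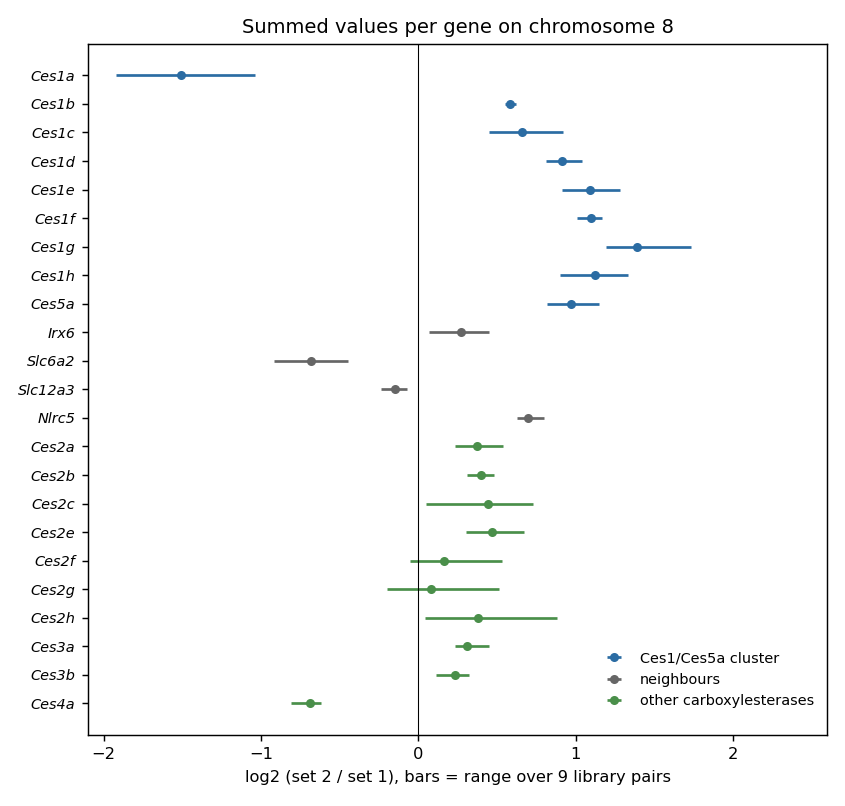
Log2 ratio of set 2 over set 1 of values summed per gene for the 9 members, the 4 neighbours with regions and the 10 other carboxylesterases, with bars for the range over the 9 library pairs. Ces1b to Ces5a stand at 0.58 to 1.39, and Ces1a, Slc6a2 and Ces4a fall to -0.68 or below.

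Genes with related activities elsewhere in the genome were read as lists. Of 20 other ester hydrolases 10 held regions, 3 higher in set 2 and 7 in set 1, with a median log2 ratio of -0.43. All 10 were without overlap, as were 23.7% of all genes with regions towards set 2 and 57.9% towards set 1. The 3 of 10 is near the 31.6% of all genes with regions that were higher in set 2. The 3 with the largest sums were Mgll (monoglyceride lipase) at -0.49, Lipc (hepatic lipase) at -0.47 and Pnpla3 at -0.31. Of 28 xenobiotic enzymes 13 held regions, 3 higher in set 2 and 10 in set 1 (4 in set 2 on equal set sums, the gene that turns being Cyp1a2), with a median of -0.53. The 3 with the largest sums were Fmo1 and Fmo2, both flavin monooxygenases, at -0.63 and -0.53, and Cyp1a1 at -0.36. The median over all genes with regions was -0.37, so neither list stood far from it. Among adipocyte markers, regions were held by 5, of which 4 stood higher in set 1 without overlap, against 57.9% of all genes with regions. By sum the first 3 were Lep at -0.43, Adipoq at -1.18 and Plin1 at -0.87. Cidec, at 0.01, overlapped between the sets, and Cebpa, with 1 region, stood at -1.49. Of the 8 hepatocyte markers 5 were higher in set 2 (31.6% of all genes with regions), with a median of 0.04. On equal set sums Alb and Hnf4a turn and the count is 7. The share over all genes is not given on that scale, so the 31.6% is not a background for the 7. Without overlap, 2 were higher in set 2 (23.7% of all genes with regions) and 2 in set 1 (57.9%).

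By the profile of the 6 libraries, the genes most like the cluster were Gm30751, Cacna2d3, Iyd, Gm36201 and A2m, on 5 different chromosomes. Likeness was the root mean square difference in log2 of each library's sum over the mean of the 6, taken over 7219 genes with at least 5 regions outside the cluster and its flanks, and it ran from 0.011 for Gm30751 to 0.030 for A2m. Cacna2d3, a calcium channel subunit, had 4604, 4682 and 4108 in set 1 and 8659, 8676 and 8365 in set 2, 1.92-fold. Iyd, an iodotyrosine deiodinase, stood at 1.95-fold and A2m, a protease inhibitor of plasma, at 1.98-fold. The profile is mostly the ratio between the sets, and the points share their libraries.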

How the data were processed

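H3K27me3 was measured by chromatin immunoprecipitation and sequencing in 6 libraries of 3T3 fibroblasts. The tools named in the submitters' processing notes are CASAVA, Trimmomatic 0.36 and BWA 0.7.17, and the build is GRCm38. No source used here names the region caller, its scaling or its treatment of the inputs. The authors deposited per region 6 whole-number signal values in a unit that is not stated, and a number read as −log10 of their p-value, which was used only in 1 alternative. A deposited score column is constant and was not used. The values were not treated as raw counts, and no test was run. Groups were not mapped to the 2 sets, since no header or label does so.

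Values were summed over regions per library, and ratios are of set sums with a pseudocount of 1, in Python 3.11.15. Errors are ranges over 9 library pairs. Gene spans and promoter windows came from RefSeq (GRCm38.p6). A region overlapping a span extended by 2 kb counted whole for each gene it touched. Background shares are over all listed regions or all protein-coding and long noncoding RNA genes. The overlap and ratio steps were tested on simulated data. The members and gene lists were chosen with earlier results of these data known. Named regions were, per member, the one with the largest sum, and over the cluster the 5 largest sums, the 3 highest and 3 lowest ratios with a sum of at least 100, the longest, and those at the edges, the latter and Gm30132 and Gm26843 chosen after their values were seen. Named list genes were those with regions, or at most 3 per list by sum. Alternatives covered span extension, scaling, p, minimum sums, pseudocounts, clipping, left-out libraries and other flanks.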

Additional observations from a re-analysis of the deposited data

How the results depend on the processing

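No result for the cluster or a member turned direction under any alternative run. The cluster's log2 ratio of 0.93 moved to 1.13 with the sets, or each library, rescaled to equal sums, and ran from 0.89 to 0.95 as each library was left out. Both rescalings also raised Ces1b, Ces1c, Ces1d, Ces1e, Ces1f, Ces1h and Ces5a by more than the spread between libraries. Ces1b moved to 0.55 with spans extended by 5 kb. The flanks' ratio of -0.07 reversed to 0.12 under both rescalings, to 0.22 with the proximal flank alone and to 0.07 with regions that overlap no gene span. It moved to -0.35 with the distal flank alone and to -0.03 with flanks of 0.1 to 1 Mb, and ran from -0.09 to -0.06 with a library left out. The difference between cluster and flanks, 1.01, moved to 0.71 with the proximal flank, 1.29 with the distal flank, 0.96 with flanks to 1 Mb and 0.87 with regions outside gene spans, and ran from 0.99 to 1.02 with a library left out. The count of 103 regions higher in set 2 held with each library left out, and the 97 regions whose sets do not overlap became 102 to 105, since fewer values must be ordered. Leaving out Ces1a or adding the regions between members, both chosen after seeing the data, moved neither the cluster's ratio nor its difference from the flanks beyond the spread between libraries. Of 235 recomputed values 208 stayed within that spread, or for counts within 1.5 times. No paired analysis was possible because the table's library values carry no replicate number and no test was run. Depth is unknown, so the precision of short regions with low values cannot be stated.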
